A study of Mus musculus with 4 samples.

Results

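The genes described here are 9 neural basic helix-loop-helix (bHLH) transcription factor genes, *Neurog1*, *Neurog2*, *Neurog3*, *Neurod1*, *Neurod2*, *Atoh1*, *Olig1*, *Olig2* and *Olig3*, out of 22208 protein-coding genes of the mouse genome build mm9. They were chosen by name, as genes known from another lineage than the cells analysed. The rule uses no measured value, but earlier results of these data were known when the genes were chosen. RYBP occupancy was measured by chromatin immunoprecipitation and sequencing (ChIP-seq) in 2 replicates of wild-type FLK1+ mesoderm, purified from embryoid bodies, the cell aggregates in which embryonic stem (ES) cells differentiate. The ES cells were of strain C57Bl/6 X Sv129, the labels give day 3.75 of differentiation, and the precipitating antibody was against DEDAF, another name of RYBP. The series also holds 2 input samples, which carry no peak list and were not analysed here.

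Some limits apply to all that follows. The study names 1 wild-type ES cell line (J1), and the only mention of independent differentiations is in the design text, in its sentence on SCL ChIP. The spread between the replicates may therefore be partly technical. That text adds that the cells were PDGFRa-. The samples were taken as RYBP ChIP because the title, the antibody and the study name RYBP. The methods of the study place the RYBP experiment slightly later than day 3.75. Peak lists hold no transcript levels, so neither the FLK1+ identity of the cells nor the silence of the neural genes could be checked. Depth cannot be read from peak lists. Per the study replicate 1, the replicate with fewer peaks, had more mapped reads than replicate 2. A weak peak shared by all cells and a strong peak in a few of them cannot be told apart in such a population. With 1 group and 2 replicates no test between groups was possible, and the genes are therefore described by their counts and levels beside those of all genes.

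bHLH factors bind DNA as dimers, usually with a ubiquitous E protein, at short E-box motifs, and the proneural members start the programme that turns a dividing progenitor into a neuron. Polycomb repressive complex 1 (PRC1) places ubiquitin on histone H2A and keeps developmental regulators of other lineages silent, and RYBP is a subunit of its non-canonical forms, which are found widely at CpG-rich promoters. In ES cells and in non-neural tissues, genes of the neural bHLH family are textbook Polycomb targets.

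RYBP peaks were found at all 9 genes, and in both replicates at all 9. The unit of counting was the locus, meaning the gene body with 5 kb upstream, and the merged regions were the authors' union of both peak lists. Of all protein-coding loci, 57.1% overlapped a merged region and 40.5% held peaks of both replicates. All 9 genes have a CpG-rich start, defined as 3 or more CpG per 100 bp over the 500 bp on either side of the start, and among the 12533 genes with such a start these shares were 83.8% and 61.5%. Having a peak is therefore common among genes with this kind of promoter. What set the 9 loci apart from most genes was how much of each locus lay inside peaks. The merged regions covered a median of 61.9% of the bases of the 9 loci (48.7% in replicate 1 and 56.4% in replicate 2, SD 5.50, n = 2 replicates). Over all loci the median was 0.786%, and over those with a CpG-rich start 2.49%.

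Loci differ in length, with a median of 7171 bp for the 9 genes and 20526 bp for all genes. A window of fixed size, 5 kb on each side of the annotated start, was therefore also used. Merged regions covered a median of 57.9% of this window for the 9 genes, 3.10% for all genes and 9.29% for genes with a CpG-rich start. The covered share of the locus itself was also set against short loci alone. Among the 1494 genes with a CpG-rich start and a locus no longer than the longest of the 9, it had a median of 14.5% and a 90th percentile of 50.6%, and 78.9% of these loci held a merged region. Short loci with such a start were thus covered to a higher share than CpG-rich genes in general. Of the 9 genes, 7 lay above that 90th percentile, *Atoh1* at 50.7% just above it, and *Neurod1* and *Olig3* lay below it.

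**Figure D1:**
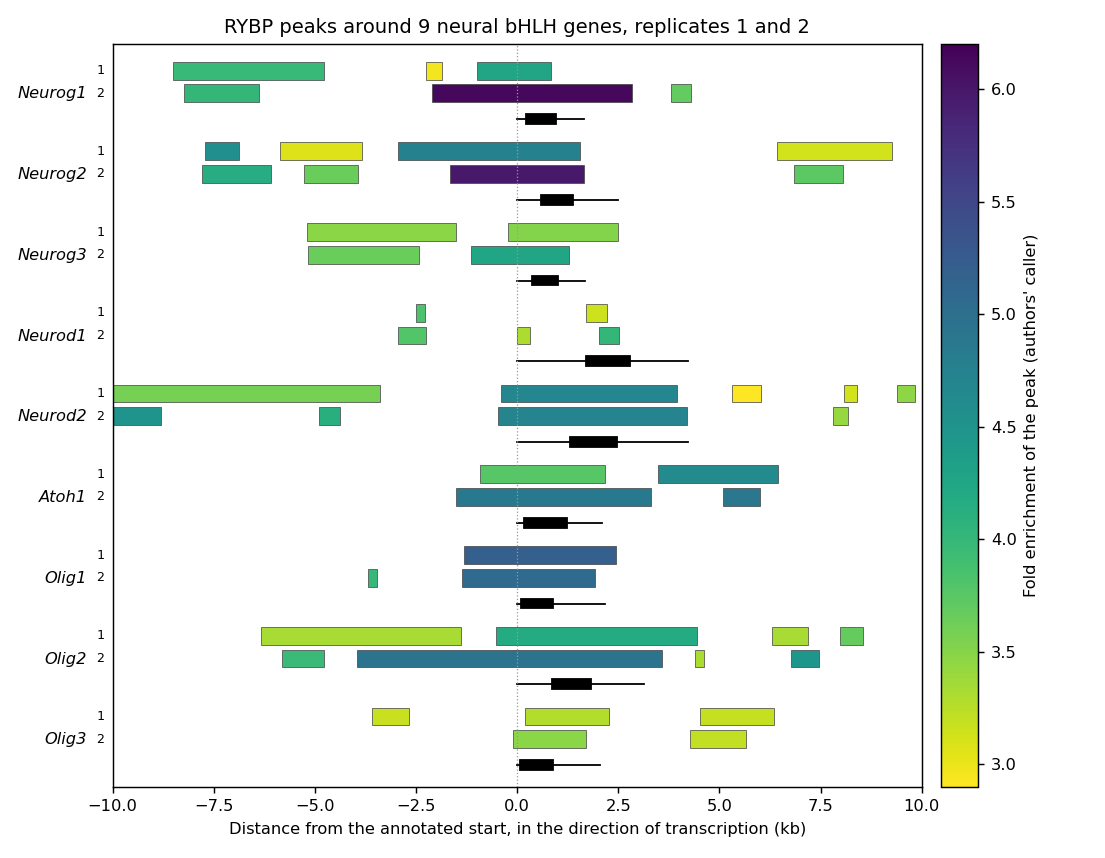
RYBP peaks of replicate 1 (upper bar of each gene) and replicate 2 (lower bar) within 10 kb of the start of the 9 neural bHLH genes, coloured by the fold enrichment of the peak, with the gene body as a black line and its coding sequence as a black box. In replicate 2 a peak of at least 1796 bp lies over the start and the coding sequence of 8 of the 9 genes, and *Neurod1* has narrow peaks in both replicates.

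All 3 neurogenin genes, which act early as proneural factors, were widely covered in the merged regions. *Neurog1* (chr13:56351866-56353524, minus strand) specifies sensory neurons of the cranial and spinal ganglia. Its locus was covered to 36.4% in replicate 1, 56.6% in replicate 2 and 61.9% by the merged regions. The highest fold enrichment of a peak in the locus, a ratio of the read pile-up to the local background as the authors' caller gave it, was 4.27 in replicate 1 and 6.13 in replicate 2. The replicate 2 peak reached from −2109 to 2841 bp relative to the start and held the whole gene, whereas in replicate 1 it was split into a peak of 1829 bp over the start and a weak one of 377 bp. A further region of 3717 bp lay upstream, with its near end at −4781 bp.

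*Neurog2* (chr3:127336054-127338549, plus strand) drives the formation of excitatory neurons in the cortex and of sensory neurons. Coverage was 75.7% in replicate 1, 58.3% in replicate 2 and 77.0% by the merged regions, and the highest fold was 4.76 and 5.98. The peak over the start was 4505 bp wide in replicate 1 and 3315 bp in replicate 2. Both *Neurog1* and *Neurog2* had their strongest peak over the start, and in replicate 2 these folds were higher than those of 98.1% and 97.6% of all peaks of that list.

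*Neurog3* (chr10:61595838-61597511, plus strand) is known above all for the endocrine progenitors of the pancreas and gut, so the label neural covers only a part of its use. Its locus was covered to 80.9% in replicate 1, 74.8% in replicate 2 and 94.6% by the merged regions. The highest fold was 3.51 and 4.26, lower than at the other neurogenin genes in each replicate. At this gene wide coverage was thus not accompanied by a high fold. The 2 merged regions of the locus, 3686 and 3641 bp wide, were separated by a short gap, and both were found in both replicates.

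Among the genes of later neuronal differentiation, *Neurod2* (chr11:98186729-98190962, minus strand), which acts in maturing excitatory neurons, resembled the neurogenin genes. Coverage was 64.8% in replicate 1, 56.4% in replicate 2 and 68.3% by the merged regions. The highest fold was 4.69 in replicate 1 and 4.71 in replicate 2, the closest pair of the 9 genes. The peak over the start held nearly the entire gene body in each replicate, with widths of 4360 and 4683 bp.

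*Neurod1* (chr2:79292678-79296908, minus strand), which promotes neuronal differentiation and is also needed in pancreatic endocrine cells, was the exception. Only 8.28% of its locus was covered in replicate 1 and 16.7% in replicate 2, with 20.1% by the merged regions. The highest fold was 3.83 and 4.02, in neither replicate the lowest of the 9 genes. Its peaks were narrow, between 244 and 702 bp, and the start itself lay inside a peak in replicate 2 and not in replicate 1. That replicate 2 peak was 341 bp wide with a fold of 3.31. The bases covered in both replicates formed 2 stretches, 1 inside the coding sequence and 1 upstream of the gene, which are printed after the promoters.

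*Atoh1* (chr6:64679140-64681227, plus strand) specifies granule cells of the cerebellum, hair cells of the inner ear and secretory cells of the gut. Coverage was 42.3% in replicate 1, 50.7% in replicate 2 and 50.7% by the merged regions, and the highest fold was 3.77 and 4.87. The replicate 2 peak over the start, 4817 bp wide, contained the replicate 1 peak of 3071 bp. A second region lay 3472 to 6448 bp downstream of the start, past the end of the gene, with folds of 4.63 and 4.89. This fold was above that of the peak over the start in replicate 1 and nearly equal to it in replicate 2. An enhancer of *Atoh1* is known to lie downstream of the gene, and whether this region overlaps it was not tested.

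The Olig genes act in the ventral and dorsal neural tube. *Olig2* (chr16:91225795-91228922, plus strand), which specifies motor neurons and then oligodendrocytes, was covered to 89.3% in replicate 1, 90.01% in replicate 2 and 100% by 1 merged region. This region, chr16:91219474-91230416, was 10943 bp wide, wider than 99.7% of all merged regions. The highest fold was 4.19 and 4.94. The breadth was built from several calls, since in each replicate the locus held 2 peaks, the wider of 4950 bp in replicate 1 and 7547 bp in replicate 2.

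*Olig1* (chr16:91270014-91272184, plus strand), which acts in the maturation of oligodendrocytes, lies on the same chromosome 41.1 kb beyond the end of *Olig2*. Coverage was 48.7% in replicate 1, 48.9% in replicate 2 and 52.4% by the merged regions. Its highest fold was 5.21 in replicate 1, the highest of the 9 genes in that replicate, and 5.08 in replicate 2. No protein-coding gene lies between the pair, and 11.8% of this interval was covered by merged regions (10.002% in replicate 1 and 7.23% in replicate 2). Of the 3 merged regions that lay wholly between the genes, 221 to 1170 bp wide, 1 was found in both replicates. The coverage of the 2 genes was thus not 1 continuous domain in these lists.

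*Olig3* (chr10:19076366-19078412, plus strand), which acts in progenitors of the dorsal hindbrain and spinal cord, had the lowest leading fold of the 9 genes in each replicate. It was 3.28 in replicate 1 and 3.48 in replicate 2, and the −log10 q of these peaks was 1.93 and 2.41. Coverage was 39.4% in replicate 1, 25.5% in replicate 2 and 43.5% by the merged regions. The replicate 1 peak began 194 bp downstream of the start and the replicate 2 peak 95 bp upstream of it, so the start was covered in replicate 2 alone.

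The order of the genes by coverage of the fixed window was partly fixed by the replicates. *Olig2* came first with 96.2% in merged regions (85.7% in replicate 1 and 79.9% in replicate 2), above the values of every other gene in each replicate. *Neurod1* came last with 18.6% (7.64% and 15.4%), below every other gene in each replicate. The 18.6% still exceeded the value of 85.4% of all genes. The other 7 genes lay between 40.1% for *Olig3* and 71.4% for *Neurog3*, above those of at least 96.5% of all genes. Within them the replicate ranges of *Neurod2* (52.1 to 59.8%) and *Atoh1* (46.0 to 48.2%) lay inside those of *Neurog3* (49.9 to 62.2%) and *Neurog2* (43.7 to 56.7%), respectively. *Neurog1*, at 24.2% in replicate 1 and 54.4% in replicate 2, could not be placed among these genes.

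By fold enrichment the order was another one. The mean of the highest folds of both replicates was 5.37 ± 0.865 for *Neurog2*, 5.20 ± 1.32 for *Neurog1* and 5.14 ± 0.0936 for *Olig1* (SD, n = 2). These 3 means lay closer together than the SD of *Neurog2* or of *Neurog1*. *Neurod2* followed at 4.70 ± 0.0149, *Olig2* at 4.56 ± 0.531 and *Atoh1* at 4.32 ± 0.779. The lowest were *Neurod1* at 3.92 ± 0.131, *Neurog3* at 3.89 ± 0.533 and *Olig3* at 3.38 ± 0.139. The fold was higher in replicate 2 at 8 of the 9 genes, *Olig1* being the exception, and at 78.3% of all genes with peaks in both lists. The spread therefore includes a shift between the lists, whose median folds were 3.29 over 14794 peaks and 3.60 over 18154 peaks. Spearman's rank correlation of the folds of both replicates over the 9 genes was 0.733.

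**Figure D2:**
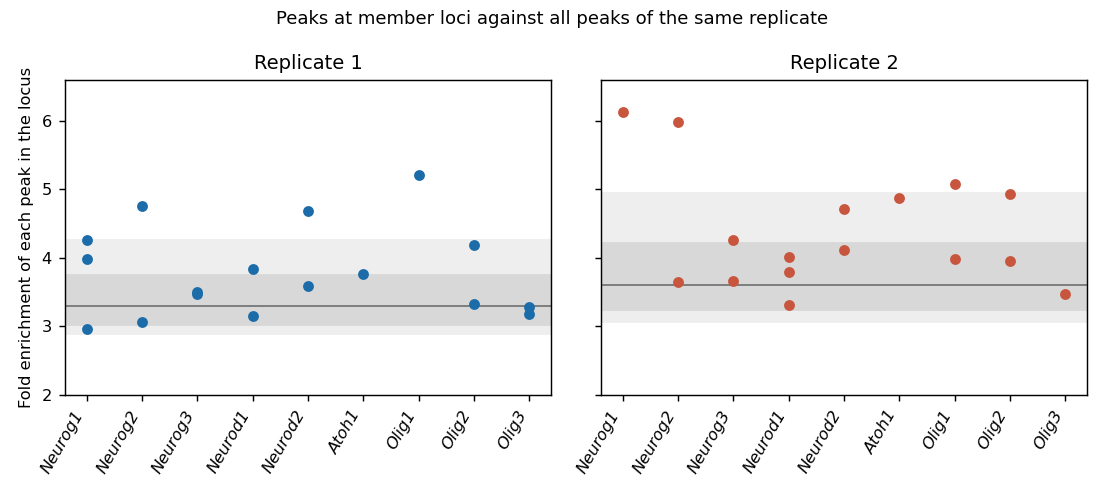
Fold enrichment of every peak in the 9 loci (points, 17 peaks in replicate 1 and 16 in replicate 2), with the median (line), the middle 50% (dark band) and the 10th to 90th percentiles (light band) of all peaks of the same replicate. In each replicate 3 of these peaks lie above the light band, and the others lie within the range of most peaks.

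The peaks of the neural bHLH genes stood out in width more than in fold. Whether each fold is a mean over the peak or its highest point was not examined, so width and fold may not be independent. The 17 peaks in replicate 1 had a median width of 3071 bp, against 766 bp for all peaks of that list, and a median fold of 3.59, against 3.29. In replicate 2 the 16 peaks had a median width of 2108 bp, against 763 bp, and a median fold of 4.06, against 3.60. By width, 10 peaks in replicate 1 and 8 in replicate 2 were above the 90th percentile of their list, whereas by fold 3 and 3 were. Of the 17 merged regions in the 9 loci, 12 were at least 2 kb wide (70.6%), while 13.3% of all merged regions were that wide. Whole widths were counted, and a wide peak or region overlaps a locus more readily than a narrow one. Of the region of 7777 bp at *Neurod2*, for example, 1620 bp lay in the locus. Peaks of both replicates contributed to 14 of the 17 (82.4%), against 44.2% of all merged regions. Wide regions have more room to overlap a peak of the other list, so these properties are not independent. Among regions found in both replicates the contrast in width was smaller, with a median of 3762 bp for the 14 and 1420 bp for all 9901. Of the bases covered in either replicate, a median of 74.0% per locus was covered in both, against 35.8% over the 12673 loci with a merged region. Only 8984 of those loci held peaks of both replicates, and the others share no base, which lowers their median.

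Peaks lay over the start and the coding sequence. The start was inside a merged region at 9 of 9 genes, against 35.8% of all genes, and inside peaks of both replicates at 7 of 9, the exceptions being *Neurod1* and *Olig3*. For peaks of both replicates the share was 18.5% of all genes and 32.3% of those with a CpG-rich start. The first 100 bases after the start were covered at 41.3% of the CpG-rich genes in replicate 1 and 60.4% in replicate 2. The share of CpG-rich starts inside merged regions is not given, and the 35.8% of all genes is a low mark for starts of this kind. Each of the 9 genes has 1 coding exon. The coding sequence lay wholly inside merged regions at 8 of 9 genes, against 2.81% of all genes, which mostly have longer coding spans split by introns. The median share of coding bases inside merged regions was 100% at the 9 genes and 2.86% at genes with a CpG-rich start. It was also 100% in the other neural, Id, Hes and mesodermal bHLH lists described below. The blood list had 90.4%, and the E protein and muscle lists had 0%. At *Neurod1* 74.7% of the coding bases were covered. In single replicates the entire coding sequence was covered at 6 genes in replicate 1 and 8 genes in replicate 2. No share over all genes is given for these counts.

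Averaged over position, the coverage was centred just downstream of the start. In replicate 2 all 9 genes were covered over the first 300 bases after the start, and in replicate 1 the highest value was 8 of 9 genes, or 88.9%. At 1.05 kb after the start 77.8% of the 9 genes were covered in replicate 1 and 88.9% in replicate 2. Of genes with a CpG-rich start, 17.7% and 18.7% were covered there, and 49.9% and 66.4% where their profile was highest. The difference between the 9 genes and CpG-rich genes in general was thus greater at this distance than at the start.

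**Figure D3:**
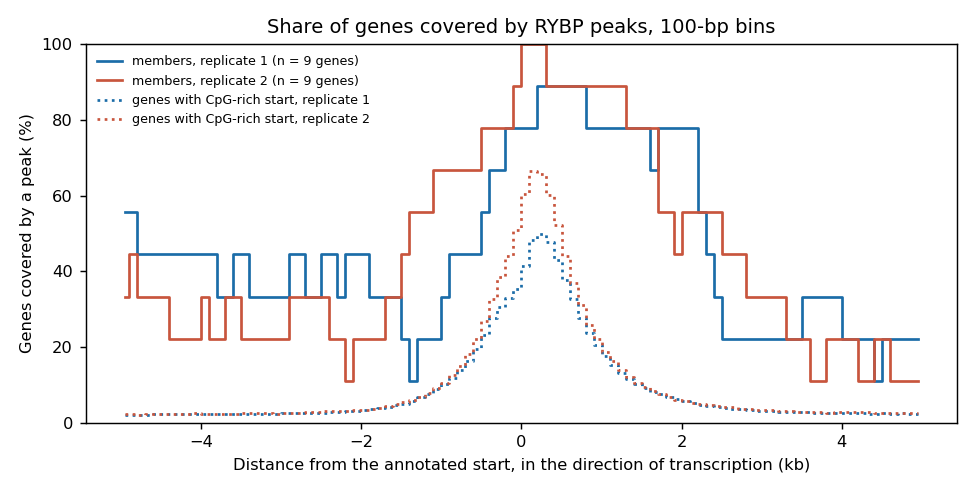
Share of genes (%) with a peak over at least 50% of each 100-bp bin, from 5 kb before to 5 kb after the annotated start, for the 9 neural bHLH genes (solid lines) and the 12533 genes with a CpG-rich start (dotted lines) in each replicate. The dotted lines drop on both sides of the start, and the solid lines stay at or above 77.8% up to 1.5 kb downstream.

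The promoter sequences show how unlike these starts are in base composition. The following 300 bases before the start of each gene are given in the direction of transcription from build mm9, with CpG in capitals. *Olig2* is shown as the gene with the widest region, *Neurog2* as a fully covered promoter whose number of CpG is that of the median promoter, *Neurod1* and *Olig3* as those outside the replicate 1 peaks, and *Neurod6*, a related gene of neuronal differentiation, as one whose locus held no peak.
Olig2, chr16:91225495-91225794, plus strand: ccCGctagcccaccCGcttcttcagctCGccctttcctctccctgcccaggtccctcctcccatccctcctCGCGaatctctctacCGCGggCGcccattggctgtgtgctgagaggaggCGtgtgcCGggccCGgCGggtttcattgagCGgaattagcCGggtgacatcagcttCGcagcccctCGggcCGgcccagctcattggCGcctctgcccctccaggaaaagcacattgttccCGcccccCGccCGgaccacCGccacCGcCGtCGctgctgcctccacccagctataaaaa
Neurog2, chr3:127335754-127336053, plus strand: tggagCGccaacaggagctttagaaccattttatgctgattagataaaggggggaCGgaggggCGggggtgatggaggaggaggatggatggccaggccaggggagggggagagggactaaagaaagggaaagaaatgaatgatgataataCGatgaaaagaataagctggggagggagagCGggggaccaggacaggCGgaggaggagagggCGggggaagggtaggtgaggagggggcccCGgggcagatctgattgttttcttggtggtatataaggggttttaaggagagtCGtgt
Neurod1, chr2:79296909-79297208, minus strand: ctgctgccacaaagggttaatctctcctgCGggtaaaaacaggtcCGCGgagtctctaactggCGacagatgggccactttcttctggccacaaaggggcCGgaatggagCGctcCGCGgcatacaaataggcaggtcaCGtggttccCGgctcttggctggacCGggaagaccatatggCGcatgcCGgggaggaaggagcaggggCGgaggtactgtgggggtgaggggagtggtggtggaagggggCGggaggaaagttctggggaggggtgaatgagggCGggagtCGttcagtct
Olig3, chr10:19076066-19076365, plus strand: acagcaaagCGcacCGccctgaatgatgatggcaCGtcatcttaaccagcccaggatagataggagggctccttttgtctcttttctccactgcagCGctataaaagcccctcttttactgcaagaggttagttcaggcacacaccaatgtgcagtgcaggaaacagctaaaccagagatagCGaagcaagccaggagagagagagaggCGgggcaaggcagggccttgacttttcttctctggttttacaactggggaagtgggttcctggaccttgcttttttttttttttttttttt
Neurod6, chr6:55631258-55631557, minus strand: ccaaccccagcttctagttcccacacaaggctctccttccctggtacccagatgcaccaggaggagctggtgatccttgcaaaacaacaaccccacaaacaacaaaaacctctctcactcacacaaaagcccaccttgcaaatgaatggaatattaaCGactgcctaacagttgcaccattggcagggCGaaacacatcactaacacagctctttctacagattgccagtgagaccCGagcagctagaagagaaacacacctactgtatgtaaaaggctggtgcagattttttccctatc

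These 300 bases held 25 CpG at *Olig2*, 9 at *Neurog2*, 17 at *Neurod1*, 6 at *Olig3* and 3 at *Neurod6*, and the median of 22202 promoters was 9. At *Olig2* and *Neurog2* all of the bases were inside peaks of both replicates. At *Neurod1*, with more CpG than *Neurog2*, 4.33% of the bases were inside the merged regions, and at *Olig3* 31.7%. Of the other members, *Neurog1* held the most with 33 CpG, followed by *Neurog3* with 20, *Olig1* with 19, *Atoh1* with 18 and *Neurod2* with 11, and each of these was covered throughout by merged regions. The number of CpG in this stretch did not order the genes by coverage. The E-box, searched as CANNTG, which reads the same on both strands, was present in 7 of the 9 promoters, not in *Olig2* and *Neurog2*, and in 70.4% of all promoters, so its presence here is common.

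At *Neurod1* the bases covered in both replicates were the following 2 stretches, given in the direction of transcription with CpG in capitals.
Neurod1 coding stretch, chr2:79294692-79294888, minus strand: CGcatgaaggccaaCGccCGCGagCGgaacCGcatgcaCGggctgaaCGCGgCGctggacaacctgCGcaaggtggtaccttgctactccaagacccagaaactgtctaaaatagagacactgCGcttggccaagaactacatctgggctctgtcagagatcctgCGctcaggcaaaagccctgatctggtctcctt
Neurod1 upstream stretch, chr2:79299173-79299416, minus strand: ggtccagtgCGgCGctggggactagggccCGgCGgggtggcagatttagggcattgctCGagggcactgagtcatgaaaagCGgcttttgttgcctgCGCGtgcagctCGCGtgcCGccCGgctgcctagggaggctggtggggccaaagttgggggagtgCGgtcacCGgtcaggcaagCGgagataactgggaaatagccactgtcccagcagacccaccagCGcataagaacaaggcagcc

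The coding stretch is 197 bp long, holds 13 CpG and begins 2020 bp after the start of the gene. It encodes the conserved bHLH domain through which the protein dimerises and binds DNA. The upstream stretch is 244 bp long, holds 16 CpG and ends at −2265 bp from the start. Between them lies the promoter printed above, with 17 CpG in 300 bases, of which only the end next to the start was in a peak.

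Over wider windows CpG density did not order the 9 genes either. Within 500 bp on each side of the start it ran from 3.40 CpG per 100 bp at *Olig3*, 3.996 at *Neurod2*, 4.30 at *Neurog3* and 4.90 at *Neurod1* to 8.39 at *Neurog2* and 8.89 at *Neurog1*. Spearman's rank correlation between this density and the covered share of the fixed window was 0.0667 over the 9 genes and 0.656 over all 22208 genes, which share the same peak lists and are not independent. Among genes of like CpG density (3 to 4 CpG per 100 bp), the median covered share was 4.12% and the 90th percentile 26.3%, and *Neurod2* stood at 63.0% and *Olig3* at 40.1%. For 4 to 5 CpG per 100 bp the 90th percentile was 27.1%, exceeded by *Neurog3* and not by *Neurod1*. In the densest class, 8 or more, it was 33.3%, and *Neurog1* and *Neurog2* were at 57.9% and 57.7%. In all, 8 of the 9 genes lay above the 90th percentile of their class, *Neurod1* being the exception.

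**Figure D4:**
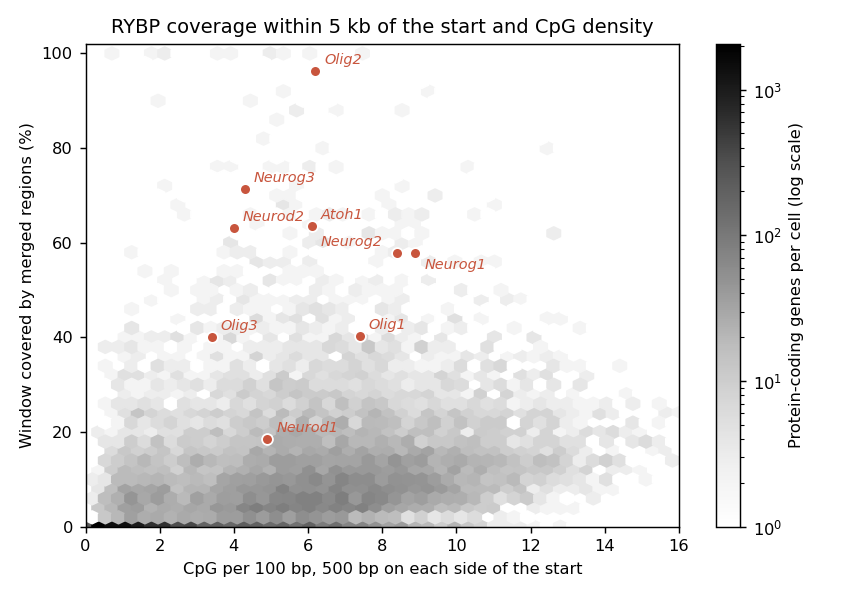
Share of the window within 5 kb of the start covered by merged regions (%) against CpG per 100 bp within 500 bp of the start, for all protein-coding genes (grey, number of genes per cell on a log scale) and the 9 neural bHLH genes (red). The 9 genes spread over densities from 3.40 to 8.89, and all except *Neurod1* lie above 40%.

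The regions themselves were not dense in CpG. The 17 merged regions had a median of 3.70 CpG per 100 bp, against 4.08 for all merged regions. For regions found in both replicates the values were 3.89 for the 14 at neural bHLH genes and 6.02 for all 9901, and all merged regions of at least 2 kb had 4.82. The peaks of each replicate, set against their own list, had 4.09 and all peaks 4.98 in replicate 1, and 4.58 and 5.44 in replicate 2. GC content was 54.8%, against 57.8% for all merged regions. E-box motifs numbered 4.92 per kb, against 4.37.

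The genes next door were mostly occupied as well, but over smaller shares of their loci. Of the 18 nearest protein-coding genes, counted on each side of the 9 genes and including *Olig1* and *Olig2* as neighbours of each other, 14 had a merged region, against 57.1% of all genes. The other 4 had no merged region in their locus (*Tifab* beside *Neurog1*, *4930422G04Rik* and *Alpk1* beside *Neurog2*, and *Gm9881* beside *Olig2*). Other than the Olig pair, the covered shares of the neighbours ran up to 14.2%, with *Ppp1r1b*, 18.8 kb from *Neurod2* and 56.7% covered, as the exception. *Ppp1r1b* encodes a signalling protein of striatal neurons.

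Related bHLH genes were described by lists of their roles. A locus with a merged region is again set against 57.1% of all genes and a locus with peaks of both replicates against 40.5%. Among genes with a CpG-rich start these shares were 83.8% and 61.5%. All genes of the E protein, Id and blood lists have such a start, as do 9 of the 11 mesodermal genes. Of 9 other neural bHLH genes, 7 had peaks in both replicates, and their median covered share of the fixed window was 23.5%. *Bhlhe22*, which acts in sensory and cortical neurons, had folds of 4.49 in replicate 1 and 4.96 in replicate 2. No merged region lay in the loci of *Neurod4* and *Neurod6*, whose starts have 1.099 and 0.899 CpG per 100 bp. *Nhlh1* and *Nhlh2* of the same list, at 0.4995 and 0.999, had peaks in both replicates. Whether CpG density bears on the absence of a region was not tested. The NeuroD genes thus ranged from *Neurod2*, with 68.3% of the locus covered, to *Neurod4* and *Neurod6* at 0%.

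The partners and inhibitors of bHLH factors differed in coverage. The 3 genes of E proteins, the general dimer partners, had a median covered window of 8.99%, with folds of 3.33 and 3.42 at *Tcf3* and 3.21 and 4.16 at *Tcf12*, and a peak in replicate 2 alone at *Tcf4*. All 4 Id genes, whose products sequester E proteins, had peaks in both replicates and a median of 29.6%, with folds of 3.81 and 4.24 at *Id1* and 3.38 and 3.99 at *Id2*. The 5 Hes genes, of a family whose best-known members repress proneural genes in the Notch pathway, all had peaks in both replicates and a median of 53.3%. Among them *Hes1* had folds of 4.57 and 5.95 and *Hes6* 3.99 and 3.98. Of these lists, the Hes genes came closest to the 57.9% of the 9 neural genes.

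bHLH genes of other lineages had peaks too. Of 11 mesodermal genes, 10 had peaks in both replicates and *Msgn1* in replicate 1 alone, with a median covered window of 29.5% and with folds of 4.82 and 4.54 at *Scx* and 4.34 and 4.67 at *Tcf15*. Of the 3 blood genes, *Lyl1* (4.25 and 4.55) and *Tal1* (11.3 and 4.17) had peaks in both replicates, and *Tal1* differed between the replicates more than any of the 9 neural genes. In the muscle family *Myod1* had folds of 3.26 and 4.13, and *Myf5*, *Myf6* and *Myog* had no merged region. These 3 starts have between 2.30 and 2.997 CpG per 100 bp, below the density of each of the 9 neural genes. Of all genes with 2 to 3 CpG per 100 bp, 40.3% had a merged region. Only 3 of the 5 Hes genes have a CpG-rich start, the lowest density among them being 1.998, and all 5 had peaks in both replicates. Peaks at bHLH genes were therefore not a property of the neural ones alone, and no test of a difference between the lists was made.

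Of 7 genes known to act downstream of proneural factors, 5 had peaks in both replicates and their median covered window was 69.4%. *Insm1*, which drives the delamination of neuronal progenitors, had folds of 5.21 and 6.96, and *Ebf3*, a factor of early neuronal differentiation, had 4.59 and 5.95 with its window covered to 100%. No merged region lay at *Myt1* and *St18*, whose starts have 0.799 and 0.599 CpG per 100 bp. Of 10 terminal genes of neurons and oligodendrocytes, 8 had a merged region and 5 had peaks in both replicates, with a median covered window of 7.97%. The highest folds there were at *Mbp* (5.01 and 4.65), encoding a myelin protein, and *Rbfox3* (3.99 and 6.04), encoding the neuronal nuclear marker NeuN. The start of *Rbfox3* has 0.699 CpG per 100 bp, a density like those of *Myt1* and *St18*. *Mog*, a myelin gene, had no merged region.

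**Figure D5:**
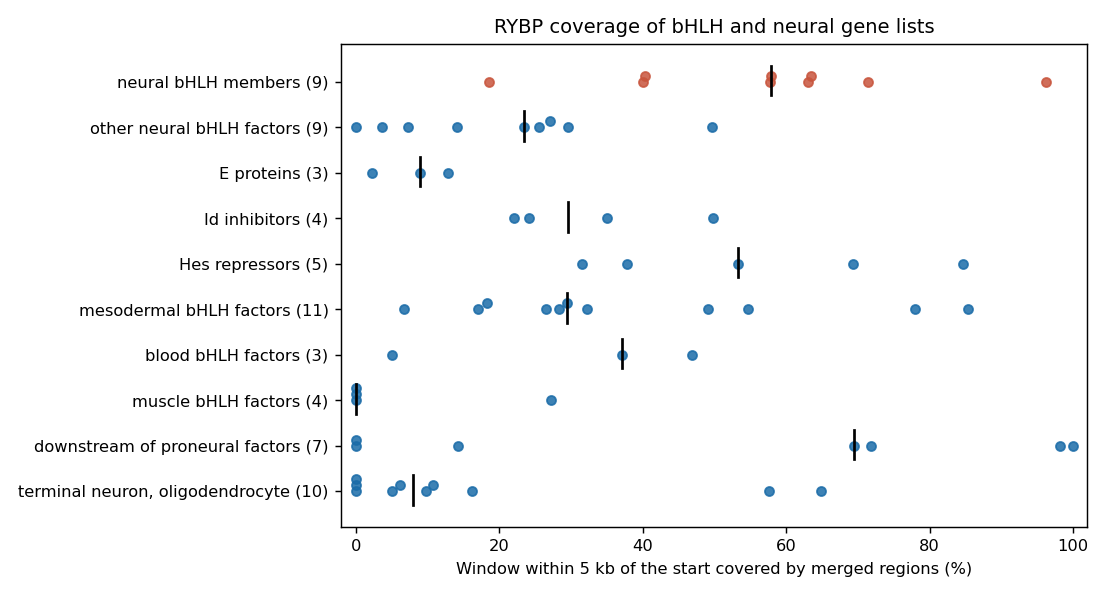
Share of the window within 5 kb of the start covered by merged regions (%) for each gene of the 9 neural bHLH genes (red) and of the other gene lists (blue), with the number of genes in brackets and the median as a black bar. The neural bHLH genes have a median of 57.9%, the E proteins 8.99% and the terminal genes 7.97%.

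The genes most like the neural bHLH genes in the shape of their coverage were found by the correlation of their profile, in 200 bins of 100 bp over both replicates, with the mean profile of the 9 genes. Among 11957 other genes with peaks in this window the highest Pearson's r were 0.872 for *Tmem132c*, 0.871 for *Auts2*, 0.866 for *Hspa1b*, 0.866 for *Bmp6* and 0.863 for *Ptger4*. These 5 genes lie on 4 chromosomes and have between 30.8% and 35.2% of the window covered. The bins of a profile are not independent, and the correlations are descriptions of shape.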

How the data were processed

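RYBP ChIP-seq was analysed from 2 ChIP replicates. The 2 input samples came with no processed file and were left out. As stated in the study's methods and the submitters' processing notes, paired-end reads were aligned to mm9 with Bowtie 1.1.2b, duplicates were removed, and broad peaks were called in each replicate with MACS2 2.0.10. The peak lists deposited by the authors give each peak a fold enrichment (a linear ratio of pile-up to local background), the −log10 of its p-value and q-value, and a score that is the −log10 q multiplied by 10 and rounded down, which was not used further. The authors also deposited a merged list of 22409 positions without values, which was identical to the union of both replicate lists when replicate 2 starts were moved by 1 bp.

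Peaks were intersected with loci (gene body and 5 kb upstream) of 22208 protein-coding symbols on the autosomes and X of the GENCODE annotation of mm9, with a minimum overlap of 1 bp. CpG, GC and CANNTG were counted in the mm9 genome sequence. Percentiles refer to all peaks of a replicate or to all genes. Scripts were run in Python 3.11.15 with numpy 2.4.6, and overlap counting was first tested on simulated intervals with known answers. The peak lists hold no depth and none entered a calculation, although the study states more mapped reads for replicate 1. Only called peaks have values, and no peak does not mean no binding.

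The 9 genes and the lists were chosen with earlier results of these data known. All 9 genes are named, and from each other list the genes without a region, where 3 or fewer, and the 2 with the highest fold in the lower of both replicates, except that a few genes of these lists are not reported here by name. The fixed window, the CpG classes, the short loci and the coding coverage were later additions, made with the data in view. Single genes outside this rule (*Tcf4*, *Msgn1*, *Ppp1r1b*, *Nhlh1*, *Nhlh2*) were named after their values were seen. Alternatives were stricter peak thresholds, regions or bases in both replicates, other locus definitions and single replicates.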

Additional observations from a re-analysis of the deposited data

How the results depend on the processing

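All 9 genes held a merged region under every alternative tried, which were regions of both replicates, −log10 q of at least 2, fold of at least 3, the gene body alone, 10 kb on both sides, 2.5 kb around the start, and each replicate alone. Peaks of both replicates were present at 9 genes, and at 8 with −log10 q of at least 2, where *Olig3* was lost through its replicate 1 value of 1.93. At that threshold the background was 47.4% of all genes for a merged region and 30.6% for both replicates. At a fold of at least 3 it was 54.2% and 35.1%. The start was covered at 9 genes, and at 8 in regions of both replicates, 8 at the stricter q, and 7 without replicate 2. No share over all genes is given for these start counts, for the other locus definitions or for single replicates. A wider locus overlaps a region more often, so those counts alone do not set the 9 genes apart. The median covered share of 61.9% was 45.2% for bases covered in both replicates, 100% for the gene body alone, 35.3% for the gene body with 10 kb on both sides and 80.1% within 2.5 kb of the start. It ranged from 48.7% to 56.4% with a replicate left out. It is thus set largely by the definition of the locus. The median of 3.70 CpG per 100 bp of the regions ranged from 4.09 to 4.58 with a replicate left out, above the 4.08 of all merged regions but below the medians of all peaks of the same replicates, 4.98 and 5.44. No paired analysis was possible because no second group with peak lists carries the replicate numbers of the ChIP samples. Without read counts, absence of a peak could not be told from low coverage.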
